A study of Sus scrofa with 18 samples.

Results

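Facing gene pairs were defined as neighbouring protein-coding genes of pig chromosomes 1 to 18 that do not overlap and whose facing ends lie 1 to 1000 bp apart in the RefSeq annotation of Sscrofa11.1. The rule gave 2027 pairs, which held 3628 of 18722 protein-coding genes (19.4%). Of these genes 414 belonged to 2 pairs. The window of a pair was the gap between both genes plus 500 bp on either side. H3K4me3 and H3K27ac had been profiled by CUT&Tag, in which a protein A-Tn5 fusion cuts the DNA at antibody-bound sites, in uterine smooth muscle of Yorkshire gilts taken from the mesometrial side on day 15. GD15M_CM is the inner circular muscle of pregnant gilts, GD15M_LM the outer longitudinal muscle of pregnant gilts and CD15M_CM the circular muscle of cyclic gilts of the same day. Each mark and the IgG control came from n = 2 gilts per group, 18 libraries in all. Both gilts were pooled before peak calling, so there are 6 peak lists without a value per gilt, and the spread between gilts is unknown for every difference below. Intervals on shares are 95% Wilson intervals and cover counting error only.

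Bidirectional promoters sit between genes that are transcribed away from each other from a shared stretch of DNA, which is often rich in CpG. H3K4me3 is laid down around active transcription start sites and H3K27ac at active promoters and enhancers, so an active divergent pair is usually marked on both sides of the gap. Genes of DNA repair, mitochondria, protein folding and RNA processing are well known for this arrangement. The annotation used here holds no strand. The 2027 pairs therefore include genes that face each other with their 5′ ends, with their 3′ ends, and with one of each, and these kinds cannot be told apart here.

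A well known divergent pair among the genes the study names was TAP1/PSMB9 on chromosome 7. TAP1, a subunit of the peptide transporter of antigen presentation, ended at 25071989 and PSMB9, a subunit of the immunoproteasome, began at 25072133, with 143 bp between them. The 2 oligonucleotides below are shown because the study lists them as the PSMB9 primers for its promoter reporter assays. Their place in the genome was not determined here.
PSMB9 forward primer: tccccgaagtcctgtgcttt
PSMB9 reverse primer: actggtttccgacctgggac
A single H3K4me3 peak covered both gene ends of TAP1/PSMB9 in every list. Its length was 6692 bp in GD15M_CM, against 4390 bp in GD15M_LM and 3532 bp in cyclic muscle. Its fold enrichment over IgG was 19.3, 13.3 and 15.0. Because fold enrichments of different lists are not on a common scale, a peak is given below by its percentile. This is its rank by fold enrichment in the list it comes from, with 0 for a window without a peak. A percentile also depends on how many weak peaks its list holds. In GD15M_CM, GD15M_LM and CD15M_CM the H3K4me3 lists held 33599, 31910 and 36331 peaks. The H3K27ac lists held 79877, 57010 and 82037. The H3K4me3 percentile of TAP1/PSMB9 was 88.2 in GD15M_CM, 67.6 in GD15M_LM and 74.0 in CD15M_CM, and the H3K27ac percentile was 91.2, 56.3 and 81.6. Both marks thus ranked highest in pregnant circular muscle. The lead over CD15M_CM was 14.19 points for H3K4me3 and 9.57 for H3K27ac, under the 20 points used below to call a pair. The paper, which tested regions rather than ranks, reports higher expression and more H3K4me3 for PSMB9 in GD15M_CM than in CD15M_CM. Against GD15M_LM the difference was 20.61 points for H3K4me3 and 34.85 for H3K27ac, and ranking by −log10 p lowered it to 17.43 and 15.0. With the same number of top peaks from each list the H3K4me3 difference was 19.99 points.

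The gaps were short. The median gap was 202 bp with quartiles of 98 and 533.5 bp, and 1010 pairs (49.8%) were at most 200 bp apart. By gap, 522 pairs had 1 to 100 bp, 698 had over 100 to 300 bp, 387 had over 300 to 600 bp and 420 had over 600 to 1000 bp. Another protein-coding gene lay over the gap in 53 pairs and a noncoding gene in 37. A gene without a symbol, named LOC in the annotation, took part in 270 pairs. Genes in pairs had a median length of 14920 bp, against 20740 bp over all protein-coding genes. Pairs were spread unevenly, from 4.96 per 100 genes on chromosome 8 to 16.3 on chromosome 12.

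Most facing pairs carried both marks. An H3K4me3 peak lay in the window of 69.3% of the pairs in GD15M_CM (interval 67.2 to 71.2), of 70.3% in GD15M_LM (68.2 to 72.2) and of 72.5% in the cyclic muscle (70.5 to 74.4). These shares stood beside 37.2%, 37.7% and 39.1% of all 30681 gene-end windows, that is the pairs and the single ends together. Single gene ends were the 28654 ends with no other protein-coding gene within 1 kb, with a fixed window of 1202 bp, the median window length of the pairs. They had an H3K4me3 peak in 35.0%, 35.4% and 36.7% of cases. For H3K27ac the pairs had 69.6%, 67.9% and 70.6% and the single ends 35.1%, 33.2% and 36.3%, with 37.4%, 35.5% and 38.5% over all windows. A single end is a 5′ or a 3′ end, whereas a facing pair offers an end of each of 2 genes. The 11838 genes with both ends single were therefore also counted by their better end, the one of higher percentile, a comparison chosen after seeing the data. This share was 59.5%, 60.2% and 61.2% for H3K4me3 and 56.7%, 56.0% and 58.8% for H3K27ac. Facing pairs were above it in all 6 lists, by less than they were above the single ends. The part of gene orientation in these shares was not tested.

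**Figure D1:**
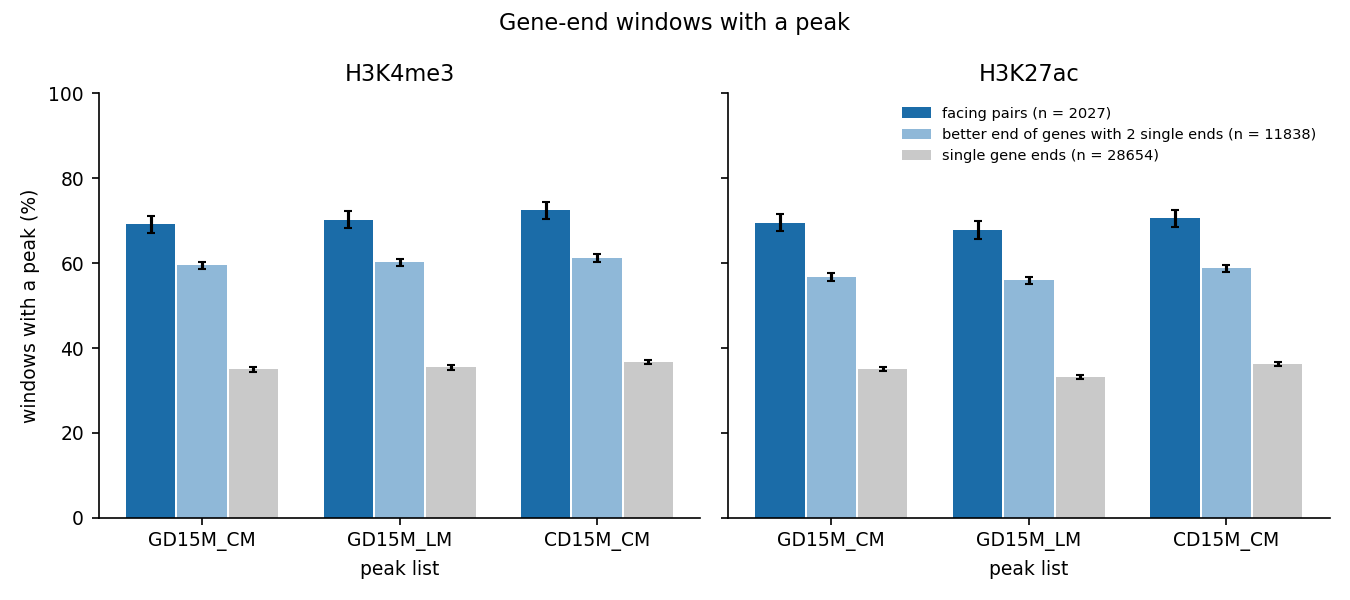
Percentage of gene-end windows with a peak (vertical axis) in each of the 6 peak lists, H3K4me3 on the left and H3K27ac on the right. Bars give the 2027 facing pairs, the better end of 11838 genes with 2 single ends and the 28654 single ends, with 95% Wilson intervals. Facing pairs lie between 67.9% and 72.5% and single ends between 33.2% and 36.7%.

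The lists shared most of these windows. In all 3 lists of a mark, 1356 pairs had an H3K4me3 peak (66.9%, 64.8 to 68.9) and 1291 an H3K27ac peak (63.7%, 61.6 to 65.8). The corresponding shares were 35.3% and 32.5% of all gene-end windows, 33.1% and 30.3% of single ends, and 57.4% and 52.3% of better ends. No list had a peak at 519 pairs for H3K4me3 and at 499 for H3K27ac. The shorter the gap, the more pairs were marked. An H3K4me3 peak in all 3 lists was found at 80.5% of pairs with a gap of 1 to 100 bp (76.8 to 83.6), 68.6% at over 100 to 300 bp (65.1 to 72.0), 60.2% at over 300 to 600 bp (55.3 to 65.0) and 53.3% at over 600 to 1000 bp (48.6 to 58.1). For H3K27ac the shares were 76.3%, 65.5%, 58.4% and 50.0%. At the limit of the rule, 98 pairs with gaps of 901 to 1000 bp had an H3K4me3 peak in 46.9%, 45.9% and 54.1% of windows in GD15M_CM, GD15M_LM and CD15M_CM, and the 102 pairs just outside it, with gaps of 1001 to 1100 bp, in 59.8%, 57.8% and 61.8%. Pairs with a LOC gene were marked less often, with H3K4me3 at 56.3%, 57.0% and 60.4% of 270, than the other 1757 at 71.3%, 72.3% and 74.4%.

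Peaks at facing pairs were longer than peaks at single ends, while their rank differed little. The median H3K4me3 peak at a pair had a length of 2846, 3060 and 3164 bp in the lists of GD15M_CM, GD15M_LM and CD15M_CM, against 2380, 2533 and 2585 bp at single ends and 2384, 2534 and 2597 bp at better ends. The H3K27ac medians were 1841, 1508 and 1741 bp against 1550, 1363 and 1538 bp at single ends. The median H3K4me3 percentile of windows with a peak was 82.1, 79.6 and 82.0 at pairs and 78.8, 77.7 and 80.2 at single ends. For H3K27ac it was 84.7, 79.2 and 78.4 at pairs and 82.0, 79.5 and 79.9 at single ends, so the order differed between lists. The better ends of genes had 84.97, 82.1 and 83.3, above the pairs in each H3K27ac list.

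At short gaps the 2 ends usually lay under 1 peak. A single H3K4me3 peak covered both facing ends in 1094 pairs of GD15M_CM (54.0%), 1156 of GD15M_LM (57.0%) and 1187 of CD15M_CM (58.6%). For H3K27ac the counts were 928 (45.8%), 921 (45.4%) and 925 (45.6%). In all 3 lists the same held at 1054 pairs for H3K4me3 (52.0%, 49.8 to 54.2) and 772 for H3K27ac (38.1%, 36.0 to 40.2). By gap, from 1 to 100 bp up to over 600 to 1000 bp, the H3K4me3 shares were 76.3%, 56.7%, 43.2% and 22.1%, and the H3K27ac shares 66.7%, 42.3%, 23.3% and 9.29%. A longer gap has to be crossed by a longer peak, and the median spanning H3K4me3 peak of GD15M_CM was 2737 bp in the first class and 3979 bp in the last. Where no peak spanned a gap of over 600 to 1000 bp, a peak often reached a single gene only: in GD15M_CM 93 of 420 pairs (22.1%) had H3K4me3 over just 1 of the 2 ends, against 3 of 522 (0.575%) at 1 to 100 bp. Windows with at least 2 H3K4me3 peaks made up 1.92% of the shortest gaps and 13.3% of the longest in the same list.

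**Figure D2:**
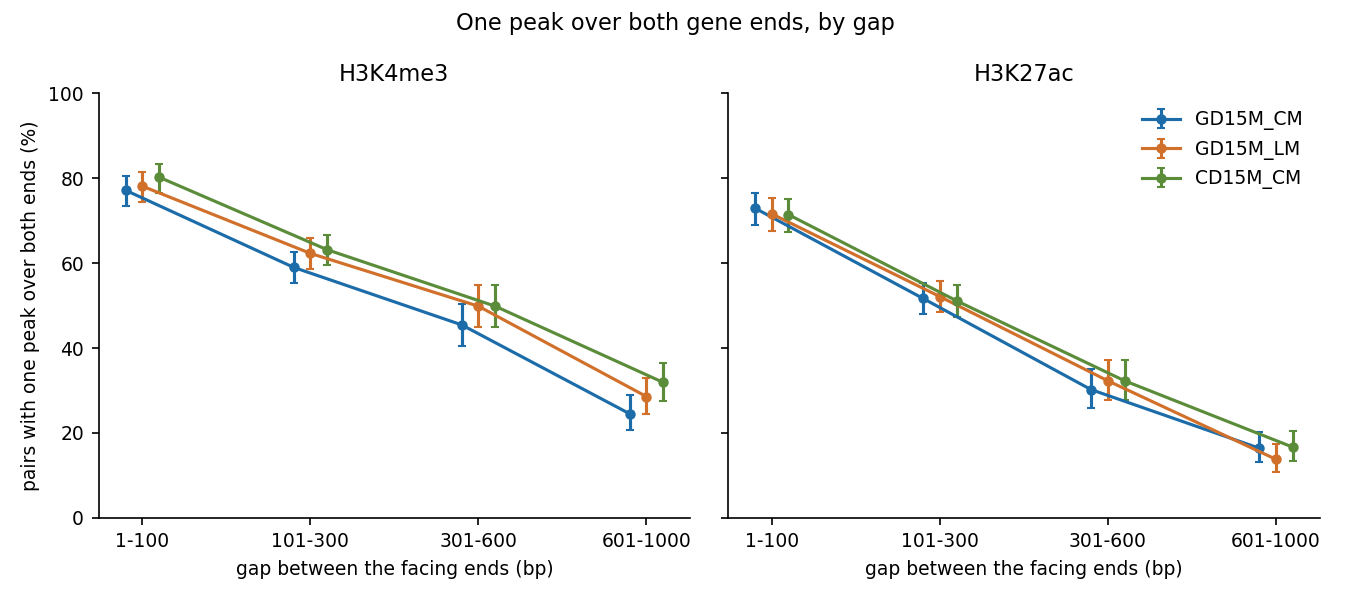
Percentage of pairs with 1 peak over both gene ends (vertical axis) by the gap between the ends in bp (horizontal axis), H3K4me3 on the left and H3K27ac on the right. Points are the 3 peak lists with 95% Wilson intervals. H3K4me3 lies between 77.2% and 80.3% at 1 to 100 bp and between 24.5% and 31.9% at over 600 to 1000 bp.

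Left and right follow genome coordinates without strand, so a similar median reach to both sides over many pairs follows from the naming. It does not describe the shape of single peaks. In GD15M_CM the median H3K4me3 reach was 1360 bp into the left and 1406 bp into the right gene of 1088 pairs, and for H3K27ac 929 and 935.5 bp of 922 pairs. Within a pair both arms were less even. The median shorter arm of an H3K4me3 peak was 1036 bp and the median longer arm 1793 bp, and in 59.8% of pairs the arms were within 2-fold. In the other lists this share was 59.5% and 61.0% for H3K4me3, and it was 55.9%, 52.5% and 53.4% for H3K27ac. Single ends have a gene on 1 side only, whereas both sides of a short gap usually lie inside a gene. H3K4me3 of GD15M_CM covered 28.7% of single ends 1000 bp inside the gene and 13.4% 1000 bp outside. Pairs with a gap of 1 to 100 bp were covered in 62.8% at 1000 bp to the left and 61.3% at 1000 bp to the right of the centre. The part of this layout in the difference was not tested. The H3K27ac profile was narrower, with 37.9% and 37.6% at these distances and 73.8% at the centre, where H3K4me3 covered 77.4%.

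**Figure D3:**
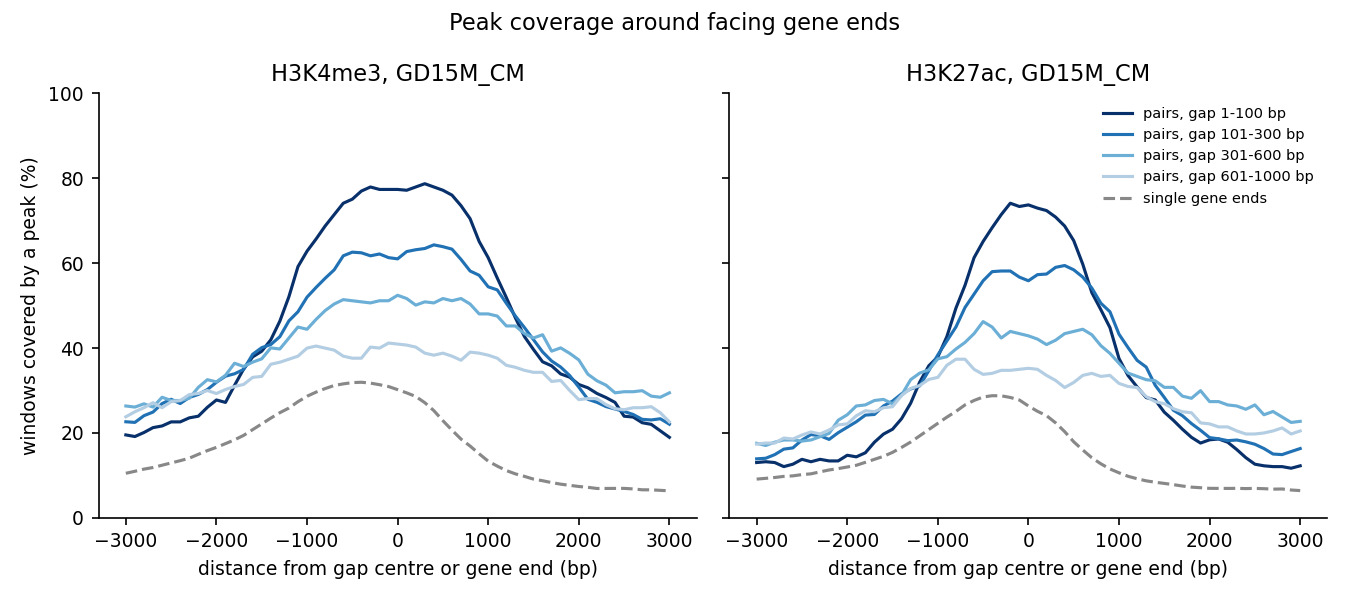
Percentage of windows covered by a peak of GD15M_CM (vertical axis) by distance in bp from the centre of the gap, or from the gene end for single ends, where negative distances lie inside the gene (horizontal axis). Solid lines are pairs by gap class and the dashed line is the single ends. The H3K4me3 line of the shortest gaps is near 77.4% at the centre and falls to 19.54% and 18.97% at 3000 bp to either side.

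The 2 marks occurred together at most pairs. Both were present at 1305 pairs of GD15M_CM (64.4%), 1289 of GD15M_LM (63.6%) and 1337 of CD15M_CM (66.0%). Among pairs with an H3K4me3 peak, 93.0%, 90.5% and 91.0% also had an H3K27ac peak, against 88.5%, 86.3% and 87.3% of single ends with H3K4me3. H3K4me3 alone was seen at 99, 135 and 133 pairs and H3K27ac alone at 105, 87 and 94.

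Of 26 divergent pairs known from mammalian genomes, 22 had both genes under these symbols in the annotation and 12 met the rule. Of the 12, 11 had both marks in all 3 lists and 10 had a single H3K4me3 peak over both ends in every list. Where 3 values follow each other from here on, their order is GD15M_CM, GD15M_LM and CD15M_CM. HADHB/HADHA on chromosome 3, the 2 subunits of the mitochondrial trifunctional protein of fatty acid oxidation, had H3K4me3 percentiles of 93.0, 80.0 and 99.9 and H3K27ac percentiles of 98.0, 91.5 and 99.98. This was the highest-ranked known pair in cyclic circular muscle. SIRT3/PSMD13 on chromosome 2, a mitochondrial deacetylase and a proteasome subunit 33 bp apart, had 89.9, 97.2 and 99.0 for H3K4me3 and 79.3, 37.2 and 89.0 for H3K27ac. FEN1/TMEM258, with the flap endonuclease of DNA replication, had 84.6, 66.7 and 96.3 for H3K4me3 and 94.0, 72.4 and 96.8 for H3K27ac. Both ranked highest in CD15M_CM for both marks.

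MCM4/PRKDC on chromosome 4 joins a subunit of the replicative helicase and the catalytic subunit of DNA-dependent protein kinase across 410 bp. Its H3K4me3 percentiles were 78.0 in GD15M_CM, 72.2 in GD15M_LM and 88.0 in CD15M_CM, and its H3K27ac percentiles 92.0, 79.0 and 73.1. ZAR1L/BRCA2, with a gene of homologous recombination, had 68.7, 69.6 and 84.0 for H3K4me3 and 96.0, 88.8 and 92.6 for H3K27ac. Its H3K4me3 peaks were short, 1630, 1517 and 1566 bp. HSPD1/HSPE1 on chromosome 15 encode the mitochondrial chaperonin and its co-chaperonin, with 520 bp between them. H3K4me3 was even across lists at 85.4, 80.5 and 77.7, whereas H3K27ac was 80.9 in GD15M_CM, 15.0 in GD15M_LM and 69.3 in CD15M_CM although its peak spanned both ends in all 3. The drop of 65.88 points to GD15M_LM became 23.05 when peaks were ranked by −log10 p. TRMT2A/RANBP1, a tRNA methyltransferase and a Ran-binding protein, had H3K4me3 peaks of 5866, 8356 and 7390 bp and percentiles of 72.3, 92.6 and 94.0. PDHX/APIP, with a component of the pyruvate dehydrogenase complex, had H3K4me3 percentiles of 69.5, 75.5 and 73.9 and H3K27ac percentiles of 55.8, 76.8 and 48.6.

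The remaining known pairs departed from this pattern. PDCD10/SERPINI1 was spanned by H3K4me3 in every list, with percentiles of 71.6, 66.8 and 76.3 in GD15M_CM, GD15M_LM and CD15M_CM, but by no H3K27ac peak, whose strongest peaks were 831, 730 and 998 bp long. TIMM44/CTXN1, with a motor component of mitochondrial protein import, had a spanning H3K4me3 peak in both circular muscle lists. In GD15M_LM an H3K4me3 peak of 11812 bp and an H3K27ac peak of 10718 bp entered the window from 1 side, and the H3K27ac percentiles were 24.9, 93.0 and 14.3. ETFDH/PPID on chromosome 8, a mitochondrial dehydrogenase and a cyclophilin 379 bp apart, had no peak of either mark in any list. The nearest H3K4me3 peak of the 3 lists lay 11186 bp away.

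**Figure D4:**
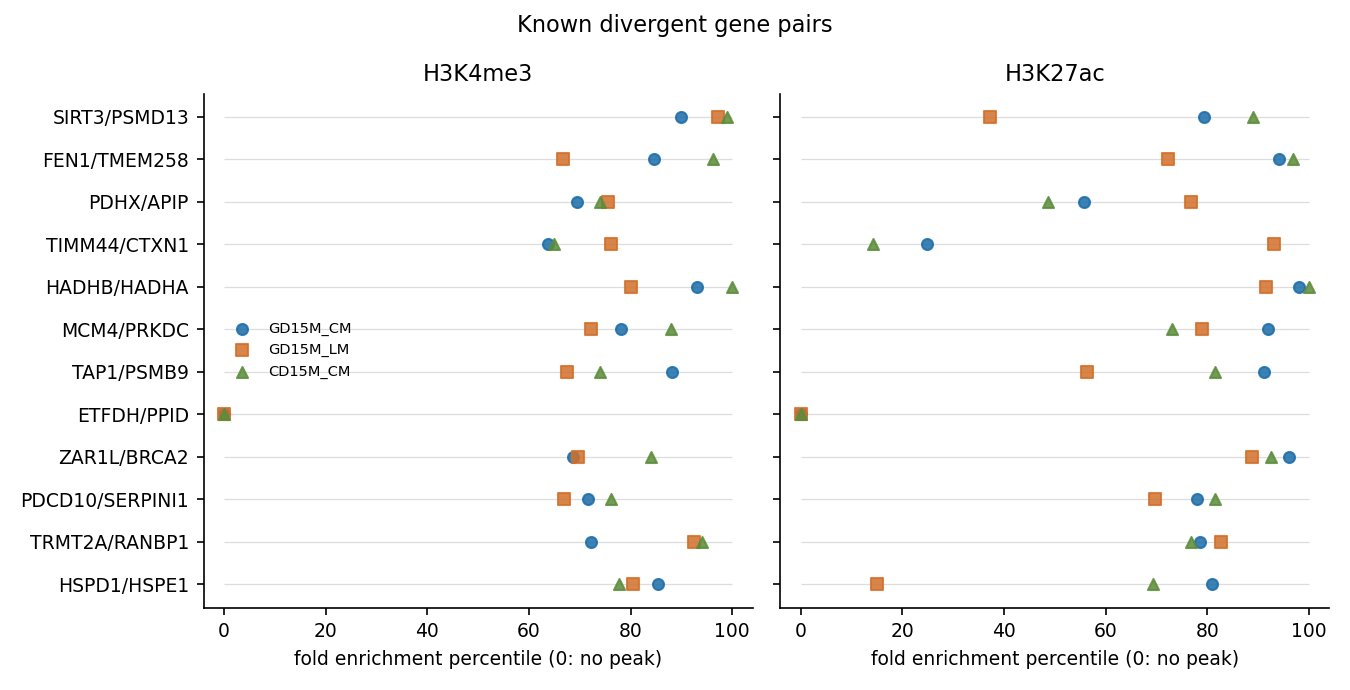
Fold enrichment percentile (horizontal axis, 0 to 100, with 0 for no peak) of the 12 known divergent pairs that met the rule (vertical axis), H3K4me3 on the left and H3K27ac on the right. Symbols are the 3 peak lists. For ETFDH/PPID all points lie at 0, and for TAP1/PSMB9 the GD15M_CM point is the highest in both panels.

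The pairs of highest mean H3K4me3 percentile were marked alike in all lists. DEGS2/YY1 on chromosome 7, with the transcription factor YY1, had 99.96 in GD15M_CM and no less in the lists of GD15M_LM and CD15M_CM, with peaks of 6748, 7303 and 7111 bp over both ends. UBAP2L/C4H1orf43 followed with 99.8, 97.3 and 99.8, UNC50/LOC100524554 with 99.1, 98.4 and 99.2, PCID2/CUL4A, with a scaffold of ubiquitin ligases, with 97.2, 99.0 and 99.6, and CRK/LOC110255905, with a signalling adaptor, with 97.5, 98.3 and 99.6. These 5 pairs were picked by these values. What the choice did not use is H3K27ac, which ranked at 98.8 or above in every list at UNC50/LOC100524554 and at 99.3 or above at PCID2/CUL4A, but at 96.7, 88.6 and 64.4 at CRK/LOC110255905. The longest H3K4me3 peak over any pair was 29865 bp in CD15M_CM on chromosome 2. It covered PPP1R14B/FKBP2, VEGFB/DNAJC4 and DNAJC4/NUDT22 at once, with a growth factor of the VEGF family and a DnaJ protein among the genes. The 3 pairs thus share 1 peak. That peak was 22042 bp in GD15M_LM and 20955 bp in GD15M_CM, where it stopped short of DNAJC4/NUDT22, which had a peak of its own of 4205 bp. Its percentile was moderate, 63.9, 73.0 and 76.5. The strongest H3K27ac peaks at these 3 pairs were 700 to 3126 bp long.

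No list had an H3K4me3 peak at 519 pairs. Their gaps were longer, with a median of 372 bp against 165 bp for the 1356 pairs with a peak in all 3 lists. A LOC gene took part in 100 of them (19.3%) against 142 (10.5%). The median distance to the nearest H3K4me3 peak of any list was 8483 bp, with quartiles of 2590 and 24030 bp. It was over 10000 bp for 243 pairs (46.8%) and within 1000 bp for 67. The pairs that follow were named after their values were seen. ABCG8/ABCG5, both subunits of the sterol transporter of liver and intestine, were 79 bp apart on chromosome 3 with the nearest peak at 85335 bp. ZIC4/ZIC1, transcription factors of the developing brain, were 44 bp apart with the nearest peak at 870215 bp. CYP11A1/CCDC33, with the enzyme of the first step of steroid synthesis, had the nearest peak at 38468 bp and RARB/TOP2B, with a retinoic acid receptor, at 64472 bp. C2/CFB, 2 complement genes 34 bp apart, had it at 5162 bp.

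Of the 519 pairs, 113 had an H3K27ac peak in at least 1 list and 24 in all 3. Those of highest H3K27ac were AVIL/CTDSP2 with percentiles of 78.0, 57.9 and 76.5 in GD15M_CM, GD15M_LM and CD15M_CM, NUP188/SH3GLB2 with 59.7, 64.6 and 72.3, TBC1D8/RPL31 with 81.7, 37.5 and 65.4, DNM1/GOLGA2 with 24.2, 57.7 and 75.6, and SARM1/SLC46A1 with 75.8, 7.95 and 66.4. All 5 had gaps of 556 to 915 bp. Near NUP188/SH3GLB2 the nearest H3K4me3 peak of GD15M_LM lay 2 bp outside the window and that of CD15M_CM 219 bp outside, while the nearest in GD15M_CM lay 15835 bp away.

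Gene groups known for divergent promoters had a larger share of their genes in facing pairs than all genes, a count that comes from the annotation alone and was not tested. Of 134 genes of DNA repair and replication 55 were in a pair (41.0%), of 81 respiratory chain genes 33 (40.7%), of 94 genes of the mitochondrial ribosome and import 33 (35.1%), of 36 genes of tRNA synthetases and tRNA modification 12 (33.3%), of 161 genes of RNA polymerase, splicing and RNA processing 52 (32.3%), of 84 chaperones 24 (28.6%) and of 129 genes of proteasome and ubiquitin 32 (24.8%). The share over all protein-coding genes was 19.4%. Zinc finger proteins were at 62 of 316 (19.6%), smooth muscle genes at 4 of 20, and interferon response genes at 6 of 43 (14.0%). Collagens had 2 of 41, keratins 0 of 35 and replication-dependent histones 0 of 4.

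The same groups are given by peaks beside the 66.9% of all pairs with H3K4me3 in all 3 lists. The share was 49 of 62 pairs (79.0%) for DNA repair and replication, 30 of 36 (83.3%) for mitochondrial ribosome and import, 29 of 38 (76.3%) for the respiratory chain, 12 of 13 (92.3%) for tRNA genes, 25 of 28 (89.3%) for chaperones, 44 of 57 (77.2%) for RNA processing, 28 of 36 (77.8%) for proteasome and ubiquitin, and 41 of 57 (71.9%) for zinc fingers. The median gap in these groups lay between 100.5 bp, in the DNA repair pairs, and 223 bp, in the RNA processing pairs, beside 202 bp over all pairs. The part of the gap in these shares was not tested. The median of the mean H3K4me3 percentile lay between 76.1 and 83.0 in these 8 groups, beside 74.8 over all pairs.

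Examples taken in genome order show the range. In every list a spanning H3K4me3 peak lay over TIMM9/KIAA0586, with an import chaperone of the mitochondrial intermembrane space, with percentiles of 93.5 in GD15M_CM, 96.9 in GD15M_LM and 98.6 in CD15M_CM. MRPL18/TCP1, a mitochondrial ribosomal protein and a chaperonin subunit, had 77.4, 99.6 and 93.1, and its H3K27ac percentiles were 83.9, 16.4 and 74.4. TBP/PSMB1, the TATA-binding protein and a proteasome subunit, had 91.4, 69.5 and 96.6. RARS2/ORC3, a mitochondrial tRNA synthetase and a subunit of the origin recognition complex, had 82.3, 69.0 and 67.4. INTS14/SLC24A1, with a subunit of the Integrator complex, had 86.5, 91.6 and 88.3, and DDX31/GTF3C4, with a subunit of a transcription factor of RNA polymerase III, had 78.0, 97.7 and 98.0. Others were bare. PRPF39/FKBP3, ATP5S/CDKL1 and RABEPK/HSPA5 had no peak of either mark in any list. HSPA5 is a chaperone of the endoplasmic reticulum. For RABEPK/HSPA5, with a gap of 981 bp, the nearest H3K4me3 peak lay 488 bp outside the window.

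Of the smooth muscle genes, 4 pairs met the rule, and all 4 had both marks in every list. MYL6B/MYL6 on chromosome 5, with the essential light chain of smooth muscle myosin, had H3K4me3 percentiles of 95.7 in GD15M_CM, 93.3 in GD15M_LM and 97.8 in CD15M_CM, with spanning peaks of 8160, 12919 and 7095 bp. Its H3K27ac percentiles were 99.3, 85.3 and 94.2. SRF/CUL9, with serum response factor, had 85.9, 94.9 and 94.2 for H3K4me3. TAGLN/PCSK7, with the actin-binding protein transgelin, had 73.3, 91.3 and 86.1, and its H3K4me3 peak of 7223 bp in GD15M_CM stopped short of 1 gene end while the 14880 bp and 11232 bp peaks of GD15M_LM and CD15M_CM spanned both. SMTN/SELENOM, with smoothelin, a protein of contractile smooth muscle, had 56.3, 66.2 and 76.1 for H3K4me3 with peaks of 966, 4410 and 4199 bp, and 94.8, 80.3 and 95.9 for H3K27ac. H3K4me3 thus ranked lowest in GD15M_CM at the last 3 of these pairs, by less than 20 points against either list. By the 20-point rule used below, 0 of the 4 pairs were called in either H3K4me3 comparison. In the same lists, H3K4me3 peaks lay at 8 of 8 smooth muscle markers, with median percentiles of 74.5, 90.2 and 87.3, lowest in GD15M_CM. These markers include TAGLN and SMTN, so their medians are not independent of the pairs above. Uterine epithelium markers had peaks at 6, 5 and 6 of 6, with medians of 77.6, 56.6 and 77.1. T cell markers placed in the annotation had them at 5, 5 and 4 of 5, with medians of 65.9, 57.5 and 41.3. Endothelium markers had them at 5 of 6 in each list, with medians of 60.1, 62.4 and 65.1, and macrophage markers at 2, 5 and 3 of 5, with medians of 0, 54.1 and 33.5. The part of other cell types in these percentiles was not tested.

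Among interferon response genes IRF7, a transcription factor of that response, faced PHRF1 on 1 side and CDHR5 on the other. PHRF1/IRF7 had H3K4me3 percentiles of 13.1, 70.6 and 71.8, without a spanning peak in any list. Its strongest peak was 635 bp in GD15M_CM, against 5869 and 5658 bp. IRF7/CDHR5 was spanned by H3K4me3 in all lists at 70.6, 70.6 and 71.8 in GD15M_CM, GD15M_LM and CD15M_CM. In GD15M_LM and CD15M_CM the same peak stood for both pairs. In GD15M_CM the peak of IRF7/CDHR5 began at 373255 and lay outside the window of PHRF1/IRF7. That window ended 500 bp into IRF7, which starts at 372235. The low percentile of PHRF1/IRF7 in GD15M_CM thus does not cover the peak over IRF7/CDHR5. PSKH1/PSMB10 on chromosome 6, with a subunit of the immunoproteasome, had 1.58, 84.0 and 67.5 across a gap of 846 bp, with no spanning peak in any list. With 2000 bp on either side GD15M_CM stood 6.23 points above CD15M_CM, and GD15M_CM minus GD15M_LM was −10.24 points. ANAPC5/CAMKK2 holds a subunit of the anaphase-promoting complex and a kinase of calcium signalling. Its window had H3K4me3 only in CD15M_CM, in a peak of 200 bp, while H3K27ac had percentiles of 52.1, 84.7 and 92.9. The nearest H3K4me3 peak lay 1894 bp outside the window in GD15M_LM and 3610 bp in GD15M_CM. The paper reports CAMKK2 among genes with increased expression and H3K4me3 in longitudinal muscle. Whether the facing end is the start of CAMKK2 is not known here. Collagen pairs were COL23A1/PHYKPL, with H3K4me3 at 77.4, 73.9 and 81.9, and UCN2/COL7A1, with none. Of the 6 interferon response pairs, 3 were called lower in GD15M_CM than in CD15M_CM by H3K4me3 and 0 higher, and 2 were lower and 1 higher than in GD15M_LM. Over all gene-end windows with a peak, 11.4% were called lower and 3.93% higher than in CD15M_CM. Against GD15M_LM these shares were 9.77% and 9.36%. PHRF1/IRF7 and PSKH1/PSMB10, whose window limits are given above, were called lower in both comparisons.

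Pregnant and cyclic circular muscle were compared pair by pair, as were the circular and longitudinal muscle of pregnant gilts, to ask which pairs ranked differently. Both comparisons share GD15M_CM. A pair was called when its percentile differed by at least 20 points between the lists, over pairs with a peak in either list, and the same count over all gene-end windows with a peak is given beside it. Of 1484 pairs, H3K4me3 ranked higher in GD15M_CM than in CD15M_CM at 47 (3.17%, beside 3.93% of all windows) and higher in CD15M_CM at 147 (9.91%, beside 11.4%). Of 1466 pairs it ranked higher in GD15M_CM than in GD15M_LM at 123 (8.39%, beside 9.36%) and higher in GD15M_LM at 108 (7.37%, beside 9.77%). For H3K27ac, 347 of 1493 pairs ranked higher in GD15M_CM than in CD15M_CM (23.2%, beside 21.8%) and 270 lower (18.1%, beside 22.5%), and 390 of 1484 ranked higher in GD15M_CM than in GD15M_LM (26.3%, beside 26.7%) and 232 lower (15.6%, beside 18.5%). These shares are near the background or under it. The paper tested regions of the whole genome for differential modification at a false discovery rate. Between GD15M_CM and CD15M_CM it reports far fewer differential regions for H3K27ac than for H3K4me3, and between the layers many for both marks. The calls here are differences in rank, so their numbers are not counts of tested differences. A peak in only 1 of the 2 lists was less frequent at pairs than over all windows, at 6.33% beside 8.87% and 7.09% beside 9.59% for H3K4me3, and at 9.71% beside 15.7% and 12.3% beside 17.3% for H3K27ac.

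The direction of some of these counts depended on how peaks were ranked and which were kept. With the same number of top peaks from each list, H3K27ac ranked higher in GD15M_CM than in GD15M_LM at 297 pairs and lower at 340, so this split turned, and the H3K4me3 counts against CD15M_CM became 74 and 135. When only peaks with −log10 p from 10 and fold enrichment from 5 upwards were kept, the H3K4me3 counts against CD15M_CM were 231 and 236, and H3K27ac against GD15M_LM had 283 and 350. Ranked by −log10 p, the H3K4me3 counts against CD15M_CM were 19 and 121. The H3K4me3 split against GD15M_LM, 123 and 108, turned to 222 and 244 with the stricter threshold, 161 and 176 with merged peaks, 75 and 87 by −log10 p, and 115 and 125 with the same number of top peaks. H3K27ac and H3K4me3 calls were also set side by side. Over all 1370 pairs with both marks, H3K27ac was called higher in GD15M_CM than in GD15M_LM at 343 and lower at 208, and against CD15M_CM at 324 and 226 of 1384. Both marks were set against the same IgG libraries. Of 112 pairs with both marks whose H3K4me3 ranked higher in GD15M_CM than in GD15M_LM, 62 were called higher in GD15M_CM by H3K27ac and 10 lower. Of 87 in the other direction 14 were called higher and 34 lower. Against CD15M_CM the counts were 20 and 2 of 39, and 17 and 54 of 119.

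**Figure D5:**
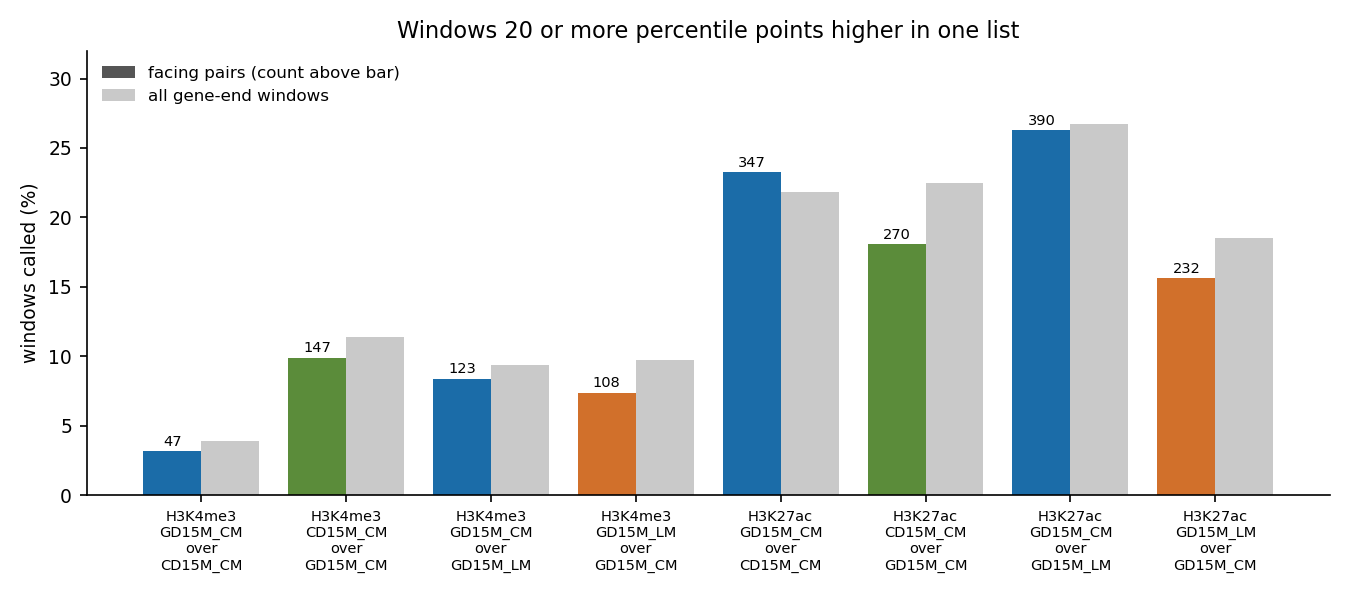
Percentage of windows whose percentile is at least 20 points higher in 1 list than in the other (vertical axis) for each mark, comparison and direction (horizontal axis). Coloured bars are facing pairs, coloured by the list in which they rank higher, with the number of pairs above the bar, and grey bars are all gene-end windows with a peak in either list. Coloured bars exceed grey ones only for H3K27ac higher in GD15M_CM than in CD15M_CM, 23.2% beside 21.8%.

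The called pairs included pairs with 1 peak over both ends in both lists and pairs without a peak in the window of 1 list. Of the 47 pairs with H3K4me3 higher in GD15M_CM than in CD15M_CM, 31 had a peak over both ends in both lists and 5 had no CD15M_CM peak in the window. Of the 147 in the other direction these counts were 44 and 46. They were 72 and 26 of the 123 pairs higher in GD15M_CM than in GD15M_LM, and 31 and 40 of the 108 lower. For H3K27ac they were 168 and 49 of 347, 110 and 58 of 270, 188 and 83 of 390, and 100 and 44 of 232, in the order of the counts above. Several of the pairs with the largest H3K4me3 differences had no peak in the window of 1 list. C14H12orf49/MED13L on chromosome 14, with a subunit of Mediator, had H3K4me3 percentiles of 99.8 in GD15M_CM, 0 in GD15M_LM and 84.5 in CD15M_CM, and the nearest peak of GD15M_LM lay 25 bp outside. PPP2R1B/ALG9 had 0, 85.8 and 93.5 with a peak 65 bp outside in GD15M_CM. SEMA4G/TWNK, with the mitochondrial helicase, had 0, 51.3 and 93.0 with a peak 152 bp outside, and SLC2A4RG/ZBTB46 had 74.8, 75.5 and 0 with a peak 73 bp outside in CD15M_CM. C9H11orf57/TIMM8B had 0, 99.5 and 35.0 with a peak 567 bp outside in GD15M_CM.

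Some of these pairs changed direction with the window. APH1A/CA14, with a subunit of gamma-secretase, had H3K4me3 percentiles of 2.19 in GD15M_CM, 96.4 in GD15M_LM and 94.0 in CD15M_CM, but GD15M_CM was 3.45 points above CD15M_CM with 2000 bp on either side. HCST/TYROBP, 2 adaptor proteins of natural killer and myeloid cells, had 96.7, 96.9 and 52.0 and no H3K27ac peak. With 2000 bp on either side GD15M_CM minus CD15M_CM was −0.768 points. Macrophage markers had H3K4me3 peaks at 2, 5 and 3 of 5, and their part in this pair was not tested. PPP1R11/RNF39 had 91.9, 13.2 and 34.2 and turned as well, with GD15M_CM minus GD15M_LM at −2.89 points. EPHA1/ZYX, with the focal adhesion protein zyxin, had 0, 87.8 and 18.1, with a peak of 10974 bp in GD15M_LM, and the nearest peak of GD15M_CM was 2544 bp outside.

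The largest H3K27ac differences included pairs without a peak in the window of 1 list and pairs with a peak in both. Those with a peak over both ends in both lists, ARMT1/RMND1 and RPAP2/GLMN, are described below. Against CD15M_CM, GD15M_CM ranked higher at ING4/ACRBP, with 94.7 and 0 and a peak 7 bp outside in CD15M_CM, and at FBXO31/C6H16orf95, with 94.4 and 0 and a peak 123 bp outside. CD15M_CM ranked higher at VTN/SARM1, with 96.7 against 0 from 38 bp of peak, and at GAS2L1/RASL10A, with 80.7 against 0 and a peak 32 bp outside in GD15M_CM. Against GD15M_LM, GD15M_CM ranked higher at TMEM55B/APEX1, with the main endonuclease of base excision repair, at 94.5 against 0, and at PRICKLE4/USP49 at 94.4 against 0, with peaks 49 and 160 bp outside in GD15M_LM. GD15M_LM ranked higher at HOXD11/HOXD10, 2 homeobox genes, with 89.7 against 0 and a peak 66 bp outside in GD15M_CM, at CCDC157/RNF215 with 88.7 against 0, and at CRTC2/DENND4B with 98.6 against 17.1, from 528 and 459 bp of peak in the window. At CRTC2/DENND4B, GD15M_CM minus GD15M_LM was −10.17 points when peaks less than 1 kb apart were merged and −7.0 points with 2000 bp on either side. At HOXD11/HOXD10 H3K4me3 spanned both ends in all lists, with percentiles of 66.4, 84.7 and 86.4.

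The comparison was repeated on pairs with a single peak over both ends in both lists, a restriction chosen after seeing the data. It left 1078 pairs for H3K4me3 in GD15M_CM and CD15M_CM, of which 31 ranked at least 20 points higher in GD15M_CM (2.88%, beside 2.12% of single ends covered in both lists) and 44 in CD15M_CM (4.08%, beside 5.35%). Of 1063 pairs, 72 ranked higher in GD15M_CM than in GD15M_LM (6.77%, beside 6.004%) and 31 lower (2.92%, beside 5.26%). For H3K27ac, 168 of 823 ranked higher in GD15M_CM than in CD15M_CM (20.4%, beside 19.1%) and 110 lower (13.4%, beside 16.2%). Against GD15M_LM, 188 of 837 ranked higher (22.5%, beside 20.7%) and 100 lower (11.9%, beside 15.6%). At these pairs H3K27ac peaks were longer in GD15M_CM than in GD15M_LM at 695 of 837 (83.0%), with medians of 2173 and 1695 bp, and at 74.6% of 6623 single ends covered in both lists. H3K4me3 peaks were longer in GD15M_CM than in CD15M_CM at 26.9% of pairs, and at 26.7% of single ends.

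The pairs named next were chosen for their size among these, after their values were seen, and both lists have a peak over both ends. ARMT1/RMND1, with a gene of mitochondrial translation, had an H3K27ac percentile of 99.3 in GD15M_CM, 77.0 in GD15M_LM and 2.91 in CD15M_CM. Its fold enrichment was 8.61 against 2.32 between the circular muscles, while the peak lengths, 1517 and 1394 bp, were alike, and the difference fell from 96.43 to 33.0 points with 2000 bp on either side. SRGAP3/SETD5 had H3K27ac at 97.0 and 8.81 and H3K4me3 at 95.8 and 66.3 in GD15M_CM and CD15M_CM. ENY2/NUDCD1, with a subunit of the SAGA and TREX-2 complexes, had H3K27ac at 95.5 and 8.10. In the other direction, RPAP2/GLMN, with a phosphatase of RNA polymerase II, had H3K27ac at 14.7 in GD15M_CM, 87.7 in GD15M_LM and 96.0 in CD15M_CM, and NIP7/COG8, with a factor of ribosome assembly, had 28.9 in GD15M_CM and 99.6 in CD15M_CM. Between the layers, SUMF2/CCT6A, with a subunit of the cytosolic chaperonin, had 85.9 in GD15M_CM and 3.52 in GD15M_LM, and MRPL47/NDUFB5, a mitochondrial ribosomal protein and a subunit of complex I, had 13.4 and 93.7.

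For H3K4me3 the spanned pairs differed less. MDH1B/FASTKD2 had 97.7 in GD15M_CM and 68.3 in CD15M_CM, and LIG4/ABHD13, with the ligase of nonhomologous end joining, 98.4 and 72.2. Neither stayed at 20 points throughout. The LIG4/ABHD13 difference of 26.21 points was 11.93 with merged peaks, 16.57 by −log10 p and 8.05 with 2000 bp on either side, and that of MDH1B/FASTKD2 was 18.77 by −log10 p. DVL2/PHF23, with a Wnt pathway protein, had 99.6 in GD15M_CM and 60.1 in GD15M_LM. SMPD2/MICAL1 stood out in the other direction with 7.93 in GD15M_CM, 93.0 in GD15M_LM and 85.5 in CD15M_CM, but with 2000 bp on either side, where the window took in other peaks, GD15M_CM minus CD15M_CM was −7.87 points. PSD/FBXL15, with 22.3, 84.4 and 89.9, came to −6.74 points in the wider window, and ZNF513/SNX17, with 13.0, 76.0 and 84.4, to −14.75 points when peaks less than 1 kb apart were merged. Fold enrichment is a ratio to IgG. The IgG signal at these pairs is not in the peak lists, so more mark and less IgG cannot be told apart here.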

How the data were processed

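The peak lists were deposited by the authors. Per the labels and the study's methods, reads were aligned with BWA 0.7.17-r1188 to Sscrofa11.1, duplicates and reads of low mapping quality were removed with Picard 2.8.3 and SAMtools 1.9, and peaks were called with MACS2 2.2.6 against IgG after both gilts of a group were pooled. The lists the authors deposited give each peak's position, its fold enrichment (a ratio to IgG) and the −log10 p and −log10 q that MACS2 writes. The names of the last 2 columns are unreadable in the files. The −log10 p column equals the one so named in the study's peak table, and the −log10 q column was inferred from its place and values. Sequencing depth is not in these lists. The −log10 q values were not used.

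Gene positions, without strand, came from the RefSeq table of Sscrofa11.1. Any overlap of at least 1 bp between peak and window counted, the peak of highest fold enrichment stood for the window, and fold enrichment was turned into a percentile of its own list (Python 3.11.15, pandas 2.3.3, NumPy 2.4.6, SciPy 1.17.1, Matplotlib 3.10.9). Overlap counts and window definitions were tested on simulated data. With 1 pooled list per group and mark no test across samples could be made. A difference of 20 percentile points is a rule of size, not a test.

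The pairs, gene lists and comparisons were chosen with earlier results of these data known. Pairs were named if they were known divergent pairs, held a gene named by the study, had the highest or longest H3K4me3 peaks, had no H3K4me3 but the highest H3K27ac, had the 3 largest differences per mark, comparison and direction, or came first in genome order in a gene list (up to 3). Those chosen after their values were seen are marked as such. Some pairs that met these rules are not reported here. Alternatives were a strict threshold, merging peaks less than 1 kb apart, the gap alone, gaps up to 500 bp, an overlap of at least 200 bp, an equal number of top peaks per list and −log10 p as the rank, and, chosen after seeing the data, the better gene end, 2000 bp on either side and pairs spanned in both lists. The IgG libraries had no list of their own here. Promoter sequence and gene strand were not used here.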

Additional observations from a re-analysis of the deposited data

How the results depend on the processing

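The difference between facing pairs and single ends was 33.84 percentage points for a peak in all 3 lists for H3K4me3 and 33.4 for H3K27ac, and 2.376 and 0.3152 points for the median percentile averaged over the lists. One peak over both ends in all 3 lists was at 52.0% and 38.09% of pairs, and 194 and 231 pairs were called for H3K4me3 against CD15M_CM and GD15M_LM and 617 and 622 for H3K27ac. Of 92 summary values recomputed, 61 stayed within the set limits, 27 moved and 4 reversed. The strict threshold gave presence differences of 31.32 and 6.533, percentile differences of 3.485 and −5.701, 9.521% for one H3K27ac peak, and 467 and 466 H3K4me3 calls. Merging peaks gave a percentile difference of 4.364 for H3K4me3, 57.08% and 46.87% for one peak, and 319 H3K4me3 calls against CD15M_CM, of which 110 were higher in GD15M_CM and 209 lower. The gap alone gave percentile differences of 1.509 and −0.6301 and an H3K27ac presence difference of 29.21. Gaps up to 500 bp gave 38.7 and 37.7 for presence and 62.07% and 48.22% for one peak. Ranking by −log10 p gave 3.939 for H3K4me3 and 391 and 405 H3K27ac calls. The same number of top peaks gave −0.2143 for H3K27ac. The better gene end gave 9.455 and 11.44 for presence and 1.28 and −2.683 for the percentile. With 2000 bp on either side the H3K27ac presence difference was 35.85. Pairs spanned in both lists gave 75 and 103 H3K4me3 calls and 278 and 288 H3K27ac calls. The cause of these changes was not tested.

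Of 355 values of named pairs, 302 kept their direction and side of 20 points, 37 dropped under 20 points and 16 reversed. The 302 include values that could not change, because 2 settings only drop pairs. These were 36 values with gaps up to 500 bp and 22 at pairs spanned in both lists. For H3K4me3, GD15M_CM minus CD15M_CM became 5.066 at APH1A/CA14, 7.743 at PSKH1/PSMB10 and −1.298 at HCST/TYROBP with merged peaks, −51.99 at HCST/TYROBP and −26.58 at PPP1R11/RNF39 with the gap alone, −26.58 at PPP1R11/RNF39 with 200 bp of overlap, and 3.454, 6.227 and −0.7682 at APH1A/CA14, PSKH1/PSMB10 and HCST/TYROBP with 2000 bp. GD15M_CM minus GD15M_LM became 0.9779 at APH1A/CA14 and −5.258 at PPP1R11/RNF39 with merged peaks, −5.586 at PPP1R11/RNF39 with the gap alone and with 200 bp of overlap, and 0.9993 and −2.889 at APH1A/CA14 and PPP1R11/RNF39 with 2000 bp. For H3K27ac it became −1.503 at PRICKLE4/USP49 with 2000 bp. No paired analysis was possible because each list pools both gilts, and for the same reason no replicate could be left out. The paper lists read numbers, which were not used here, so the depth behind a missing peak was not examined.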
